A study of Drosophila melanogaster with 6 samples.

Results

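The 7 genes described here encode the stress-inducible Hsp70 chaperones of Drosophila melanogaster: Hsp70Aa, Hsp70Ab, Hsp70Ba, Hsp70Bb, Hsp70Bbb, Hsp70Bc and the related Hsp68. They were taken by gene name, and each name matched a single row among the 17908 rows of the deposited count table. Polyadenylated RNA of larvae was sequenced in 6 libraries, 2 for each of 3 genotypes. Control larvae are labelled fiomut/cyo, which puts a fio mutant chromosome over the CyO balancer. Mutant larvae are labelled fiomut/fiomut ;U6mut/U6+, so they are homozygous for fio and heterozygous for a U6 mutation. Rescue larvae, fiomut ,[U6+]/fiomut ;U6mut/U6+, have the mutant genotype plus an element that the labels write as [U6+], taken to be an added copy of U6. All 3 groups carry at least 1 fio mutant chromosome, and the control is labelled neither for the U6 mutation nor for the added element. The series concerns the m6A methyltransferase METTL16 and asks which genes it affects. The labels state growth at room temperature and freezing in Trizol, name no heat treatment, and give neither larval age nor the number of animals in a library.

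Hsp70 proteins bind exposed hydrophobic stretches of unfolded proteins and release them in cycles of ATP hydrolysis, with help from J-domain proteins and nucleotide exchange factors. In Drosophila the Hsp70 genes are the classical heat shock loci: RNA polymerase II waits paused near their starts, and heat shock factor (Hsf) releases it when cells are stressed. Their RNA is low in unstressed flies, in which constitutive cognates such as Hsc70-4 do the housekeeping work.

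The members lie on chromosome arm 3R, and their coordinates in the table equal those of the Ensembl annotation of BDGP6, the Release 6 assembly. Hsp70Aa (11954163 to 11956544, minus strand) and Hsp70Ab (11958535 to 11960909, plus strand) form the divergent 87A pair, 1.99 kb apart. At 87C, Hsp70Ba (12465453 to 12467776, minus strand) is separated by 34.7 kb from a tandem row of Hsp70Bbb (12502510 to 12504856), Hsp70Bb (12505793 to 12508139) and Hsp70Bc (12509076 to 12511461), all on the plus strand. Hsp68 (24055080 to 24057310, minus strand) stands alone at 95D. Each member has 1 annotated transcript with 1 exon, and the coding part holds 642 codons in the 87A copies, 641 in the 87C copies and 635 in Hsp68. Because the 6 Hsp70 copies are nearly identical, a read can match several of them, and how such reads were counted is not given in the sources used here. The division of counts among the copies is therefore uncertain, and the sum of the 6 copies was tested beside them. Hsp70Ab overlaps the opposite-strand gene CG3281 by 27 bases. Hsp68 overlaps CG6000 and CR44097 by 13 bases, and both of those rows are at 0 counts in all libraries.

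Library totals ran from 15983161 to 17847161 counts, and the 6 Hsp70 copies together took between 0.000365 and 0.0621% of them. A count of 0 would allow a share of up to 1.68e-05 to 1.88e-05% of a library, for counting error only. The labelled stage was checked by the summed levels of marker lists, in CPM (counts scaled to the normalized library size). Larval fat body markers (6 genes) stood at 55011 to 93539 CPM, and adult markers (8 genes, with Cp19 at 0) at 12.6 to 45.9 CPM. Third-instar salivary glue genes (6 genes) reached 2574 and 7470 CPM in control and 23.3 and 434 in mutant, against 13155 and 12918 in rescue. Gut enzyme markers (9 genes) stood at 2183 and 2421 CPM in control and 26450 and 27752 in mutant, against 4558 and 5057 in rescue. Muscle markers (6 genes) ran from 43984 to 74979 CPM in control, 29304 to 29958 in mutant and 16335 to 17811 in rescue. Hemocyte markers (6 genes) lay at 1734 and 1068 CPM in control and 1139 and 1529 in mutant, against 599.7 and 445 in rescue, and neuron markers (5 genes) at 182 to 345 CPM in all libraries. Glue, gut and muscle markers thus separated all 3 groups without overlap, and hemocyte markers were lower in both rescue libraries than in the others. Fat body markers were higher in both control libraries (92507 and 93539 CPM) than in the others. Neuron markers were lower in both mutant libraries (182 and 192 CPM) than in the others. The part of these cell types and stages in the heat shock gene results was not tested.

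The Hsp70 genes lost most of their RNA in mutant larvae. Summed over the 6 copies, Hsp70 stood at 112 and 144 CPM in control 1 and control 2, at 10.9 and 3.52 CPM in mutant 1 and mutant 2, and at 565 and 246 CPM in rescue 1 and rescue 2. Behind these levels were 1494 and 2452 counts in control and 180 and 59 in mutant, against 9918 and 4510 in rescue. The groups did not overlap: every mutant library lay below every control library, and every control library below both rescue libraries. The summed level fell 17.8-fold from control to mutant (log2 -4.15, SE 0.62, adjusted p = 0.00664, edgeR) and rose 56.3-fold from mutant to rescue (log2 5.81, SE 0.67, adjusted p = 0.00332). The group means were 128 ± 22.4 CPM (SD, n = 2) in control, 7.20 ± 5.21 in mutant and 406 ± 226 in rescue. Both comparisons use the mutant libraries, so they are not independent. In whole larvae, fewer cells with Hsp70 RNA and less of it per cell cannot be told apart.

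Both calls on the sum held in all 15 alternatives, with log2 values of -5.18 to -2.83 for mutant against control and 4.69 to 6.84 for rescue against mutant. The size depended on which mutant library was kept. Without mutant 1 the log2 change was -5.18 against control and 6.84 in rescue, and without mutant 2 it was -3.56 and 5.22. Leaving out rescue 1 gave 5.10 for rescue against mutant. The 87A pair alone changed by -2.83 and 4.69 on the log2 scale, and the 87C group alone by -4.37 and 6.02. An exact permutation test of the summed CPM with 2 libraries a group cannot go below a two-sided p of 0.333, which each of the 3 comparisons gave.

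**Figure D1:**
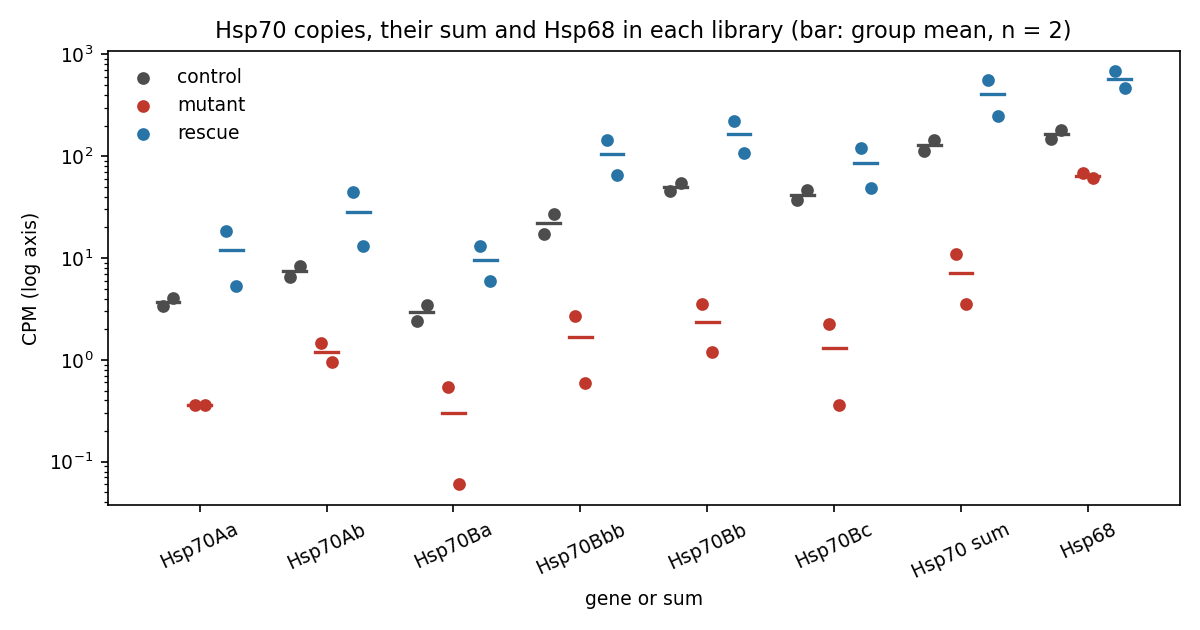
CPM of each Hsp70 copy, of the 6 copies summed and of Hsp68, on a log axis, with a point for each library and a bar at the mean of the 2 libraries of a group. For the summed copies the mutant libraries sit at 10.9 and 3.52 CPM, below the control libraries at 112 and 144 and the rescue libraries at 565 and 246.

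All 7 rows fell in mutant and all 7 rose in rescue against mutant. Over all 11866 tested genes, 7.04% were called lower in mutant than in control, and 7.61% passed as higher in rescue against mutant. The copies share sequence and possibly reads, so the 7 rows are not 7 independent observations. Of the 11866 tested genes, 30.2% had both mutant libraries below both control libraries, and 33.8% had both rescue libraries above both mutant libraries. All 7 rows did so as well.

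The tandem genes of 87C gave most of the reads. Hsp70Bb had 45.8 and 54.4 CPM in control and 3.57 and 1.19 in the mutant, against 223 and 108 in the rescue. Its RNA fell 21.0-fold in mutant (log2 -4.39, SE 0.56, adjusted p = 0.00356) and was 69.5-fold higher in rescue than in mutant (log2 6.12, SE 0.60, adjusted p = 0.00191). By deposited FPKM, which is scaled to gene length, Hsp70Bb ranked 2684 and 2402 of 17908 rows in control and 9731 and 11324 in the mutant, against 717 and 1293 in the rescue. Hsp70Bc, at the end of the row, had 36.8 and 46.7 CPM in control and 2.24 and 0.358 in mutant, against 122 and 48.5 in rescue. It fell furthest among the copies in mutant (32.1-fold, SE 0.75 on the log2 scale, adjusted p = 0.00654), with 37 and 6 counts left in the mutant libraries. Hsp70Bbb, first in the row, had 17.4 and 27.0 CPM in control and 2.72 and 0.597 in mutant, against 144 and 65.3 in rescue. Its log2 changes were -3.74 (SE 0.67, adjusted p = 0.0127) in mutant and 5.98 (SE 0.72, adjusted p = 0.00366) in rescue against mutant.

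The divergent genes gave few reads. Hsp70Ab had 87 and 142 counts in control and 24 and 16 in mutant, against 775 and 238 in rescue. In the same order these were 6.54 and 8.34, 1.45 and 0.955, and 44.2 and 13.0 CPM. This copy fell least among the Hsp70 genes in mutant (log2 -2.62, SE 0.61, adjusted p = 0.0294) and rose by 4.56 in rescue against mutant (SE 0.63, adjusted p = 0.00573). Its neighbour Hsp70Aa had 45 and 69 counts in control, 6 in each mutant library, and 325 and 98 in rescue, with log2 changes of -3.34 and 5.02. Hsp70Ba, the outlying minus-strand copy of 87C, had the lowest level in both control libraries, with 32 and 59 counts in control and 9 and 1 in mutant, against 233 and 108 in rescue (log2 -3.26 and 4.96).

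The calls on the sparse copies were lost when single libraries were left out, although the fold change of Hsp70Aa in mutant hardly moved. For mutant against control, the calls on Hsp70Aa, Hsp70Ab and Hsp70Ba were lost without control 2 (log2 -3.20, -2.43 and -2.97), without mutant 1 (-3.34, -2.95 and -5.45) and without mutant 2 (-3.33, -2.35 and -2.42), and that on Hsp70Bbb without mutant 2 (-3.03). For rescue against mutant, the calls on Hsp70Aa and Hsp70Ab were lost without mutant 1 (5.02 and 4.89) and, with that on Hsp70Ba, without mutant 2 (5.01, 4.29 and 4.12). The calls on Hsp70Bb and Hsp70Bc held in both comparisons under all 13 alternatives, with adjusted p-values of up to 0.0381. Without mutant 1 their log2 values were -5.38 and -6.83 against control and 7.10 and 7.86 in rescue, and without mutant 2 they were -3.81 and -4.22, and 5.53 and 5.24. Hsp70Ba rose by 7.15 in rescue without mutant 1. For Hsp70Bbb these values were -5.19 and 7.43 without mutant 1, and 5.26 without mutant 2 in rescue against mutant. Without rescue 1 the rescue against mutant values were 3.86 for Hsp70Aa, 3.43 for Hsp70Ab, 4.26 for Hsp70Ba, 5.30 for Hsp70Bbb, 5.50 for Hsp70Bb and 5.22 for Hsp70Bc. Without rescue 2 they were 5.65 for Hsp70Aa and 5.19 for Hsp70Ab.

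**Figure D2:**
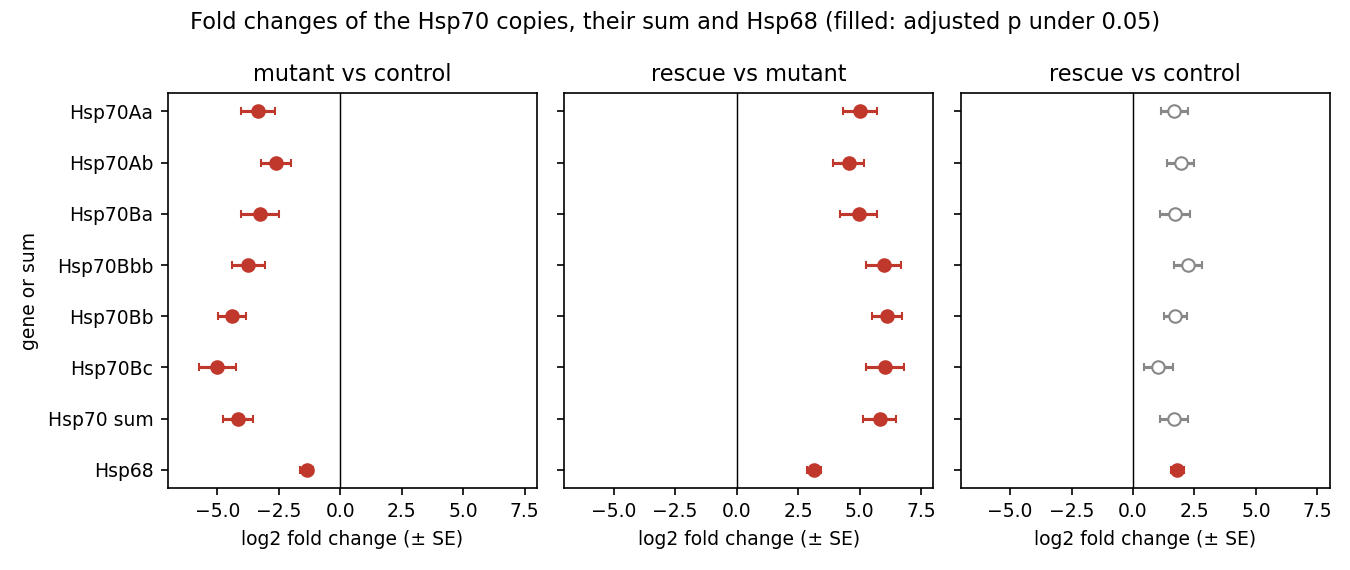
Log2 fold change with its standard error for each Hsp70 copy, the 6 copies summed and Hsp68 in the 3 comparisons, filled where the edgeR adjusted p is under 0.05. All points of mutant against control lie below 0 and all of rescue against mutant above 0, whereas in rescue against control only Hsp68 (log2 1.80) is filled.

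Hsp68 kept a clear level in mutant larvae. It had 148 and 183 CPM in control and 67.9 and 61.1 in the mutant, against 682 and 469 in the rescue. No group overlapped another, with control between mutant and rescue. The decrease in mutant was 2.56-fold (log2 -1.36, SE 0.26, adjusted p = 0.0168), and rescue was 8.91-fold above mutant (log2 3.16, SE 0.28, adjusted p = 0.00163). The decrease missed the threshold without control 2 (log2 -1.19, adjusted p = 0.0549), mutant 1 (-1.43, 0.0828) or mutant 2 (-1.28, 0.0932). Its adjusted p ranged from 1.08e-05 to 0.0932 over 13 alternatives.

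Measured per length, the balance between Hsp70 and Hsp68 differed between genotypes. Summed Hsp70 over Hsp68, by deposited FPKM, was 0.718 and 0.744 in control and 0.152 and 0.0544 in mutant, against 0.784 and 0.497 in rescue. Both mutant libraries lay below all the others, and control and rescue overlapped. The deposited FPKM of Hsp68 was 67.6 and 80.8 in control and 29.9 and 27.4 in mutant, against 299.7 and 206 in rescue. The 6 Hsp70 copies summed had 48.5 and 60.1 in control, 4.53 and 1.49 in mutant but 235 and 102 in rescue. An exact permutation test of this ratio, with 2 libraries against 2, gave its smallest possible two-sided p of 0.333 for mutant against control.

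The rescue libraries lay above the control libraries as well. For the summed Hsp70 copies the difference was 3.17-fold (log2 1.66, SE 0.56) and missed the threshold (adjusted p = 0.177, range 0.0357 to 0.550 over 15 alternatives). Hsp68 was 3.48-fold higher in rescue than in control (log2 1.80, SE 0.27, adjusted p = 0.0433). It was the single member called in this comparison, against 0.354% of tested genes called higher. Both rescue libraries lay above both control libraries for all 7 members, as they did for 30.7% of tested genes. The Hsp70 copies had log2 values of 1.02 (Hsp70Bc) to 2.24 (Hsp70Bbb) with adjusted p-values of 0.106 to 0.408. Without rescue 1 they ran only from 0.22 (Hsp70Bc) through 0.52 (Hsp70Aa) and 0.80 (Hsp70Ab) to 1.56 (Hsp70Bbb), and without rescue 2 from 1.54 to 2.70.

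This comparison depended strongly on the libraries kept. The Hsp68 call was lost without control 1 (log2 1.66, adjusted p = 0.119), mutant 1 (1.80, 0.108), mutant 2 (1.80, 0.103) or rescue 1 (1.50, 0.0862), when only the 4 control and rescue libraries were fitted (1.75, 0.110), and with the replicate block (1.78, 0.0531). DESeq2 called the sum (log2 1.63, adjusted p = 0.0357) and 4 members, and an unfiltered fit called Hsp70Bbb as well as Hsp68. Without rescue 1 the summed difference was 0.94 on the log2 scale, and without rescue 2 it was 2.14, where Hsp70Ab passed (log2 2.57, adjusted p = 0.0304).

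The division of Hsp70 reads among the copies differed between control and rescue. Hsp70Bc held 32.8% (95% Wilson interval 30.5 to 35.2%) and 32.5% (30.6 to 34.3%) of the summed counts in control, and 21.5% (20.7 to 22.3%) and 19.7% (18.6 to 20.9%) in the rescue. Hsp70Bbb held 15.5% (13.7 to 17.4%) and 18.8% (17.3 to 20.4%) in control, and 25.5% (24.7 to 26.4%) and 26.5% (25.3 to 27.8%) in rescue. So more reads were assigned to Hsp70Bc than to Hsp70Bbb in control, and fewer in rescue. The groups differ in their labelled chromosomes, and whether the copies on these differ in sequence, or how multiply matching reads were handled, was not tested. The intervals cover counting error only, since reads without molecular identifiers need not be independent molecules.

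By deposited FPKM, the ratio of Hsp70Bbb to Hsp70Bc was 0.479 and 0.587 in control and 1.24 and 1.69 in mutant, against 1.21 and 1.37 in rescue. Mutant and rescue libraries lay on the same side, apart from control. In mutant the ratio rests on 45 and 10 counts of Hsp70Bbb and 37 and 6 of Hsp70Bc. The ratio of Hsp70Bc to its neighbour Hsp70Bb was 0.791 and 0.846 in control and 0.617 and 0.295 in mutant, against 0.535 and 0.442 in rescue. With 2 libraries a group, the exact permutation p of these ratios was 0.333 for mutant and for rescue against control, the smallest possible.

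The 87A pair held 8.84% (7.50 to 10.4%) and 8.61% (7.56 to 9.78%) of the counts in control, 16.7% (11.9 to 22.8%) and 37.3% in mutant, and 11.1% (10.5 to 11.7%) and 7.45% (6.72 to 8.25%) in rescue. Both mutant libraries lay above the others, on 30 of 180 and 22 of 59 reads. Control and rescue libraries overlapped.

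**Figure D3:**
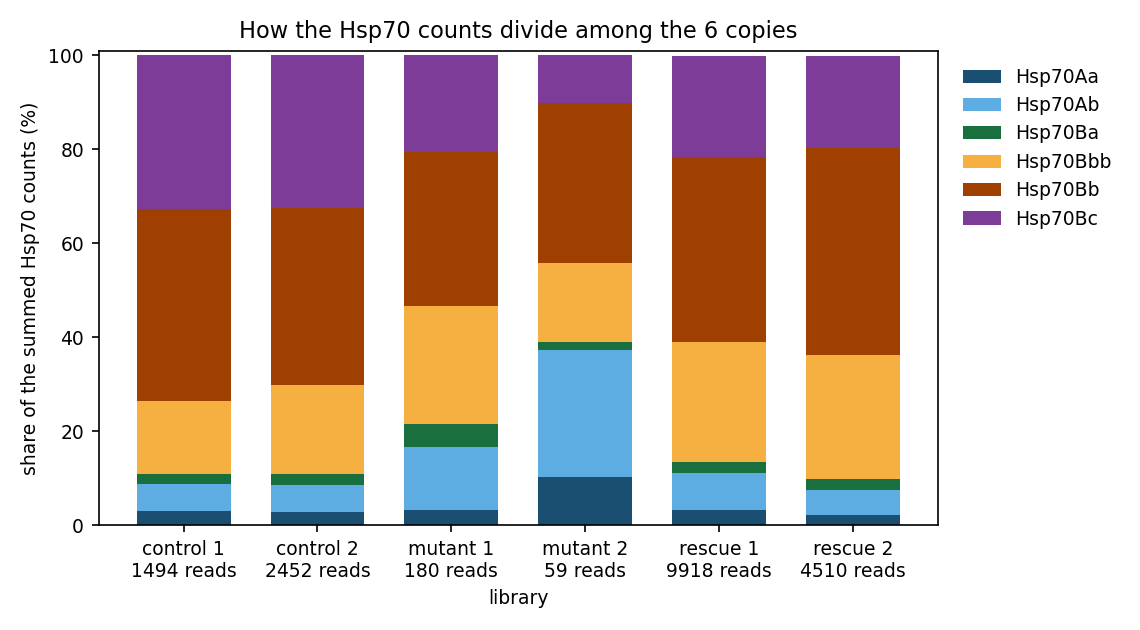
Share of the summed Hsp70 counts held by each of the 6 copies in each library, in percent, with the number of summed reads under each bar. Hsp70Bc takes 32.8 and 32.5% in control and 21.5 and 19.7% in rescue, and the mutant bars rest on 180 and 59 reads.

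Genes that work with Hsp70 or control it were taken as 4 lists of 43 genes in all, 40 of them tested. In mutant against control 9 of these were called, all lower, and in rescue against mutant 9 were called, all higher. Over all tested genes 7.04% were called lower in mutant and 7.61% higher in rescue against mutant. The heat-inducible list gave 6 calls in each comparison. In mutant the other lists gave 1 of 6 cognates, 1 of 12 co-chaperones and 1 of 13 regulators, too few calls to compare with the share over all genes. By direction alone, 3 cognates, 9 co-chaperones and 11 regulators had log2 values below 0 in mutant. In rescue against mutant 3, 8 and 12 of them had values above 0. Over all tested genes the medians were -0.02 and 0.00. Without control 2, mutant 1 or mutant 2, 4, 1 and 3 genes were called lower in mutant. Without mutant 1 or mutant 2, 3 genes were called higher in rescue, and without rescue 1 or rescue 2, 6 were.

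Among 12 other heat-inducible genes, 9 were tested, 6 fell in mutant and 6 rose in rescue against mutant. The medians were -2.88 and 3.76 on the log2 scale, against -0.02 and 0.00 over all tested genes. Those with the lowest adjusted p were small heat shock genes of 67B, whose proteins hold unfolded proteins in a form that Hsp70 can refold. Hsp26 had 290 and 418 CPM in control and 49.1 and 27.3 in mutant, against 761 and 636 in rescue (log2 -3.21 and 4.19). Hsp23 changed by -4.16 and 5.61, Hsp27 by -3.12 and 4.24, and Hsp67Ba by -2.88 and 3.76. Without mutant 1 the calls on Hsp23 (-4.57 and 6.02) and Hsp27 (-3.14 and 4.26) were lost in both comparisons, and that on Hsp67Ba (-2.70) in mutant against control. Without mutant 2 those on Hsp23 (-3.84 and 5.29) and Hsp27 (-3.10 and 4.22) were lost too. In mutant against control, Hsp23 and Hsp27 stood at -4.85 and -3.72 without control 1, and at -2.78 and -2.08 without control 2. Hsp27 and Hsp67Ba overlap the rows CR43483 and CR43481, and Hsp83 and Hexim overlap CG14966 and Rad17. Since the strand setting of the counts is not given, reads in those overlaps cannot be told apart.

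Other heat-inducible RNAs did not pass the test. Hsp83, the fly Hsp90, had log2 values of -0.40 (adjusted p = 0.423) and 0.72 (adjusted p = 0.172). The noncoding heat shock RNA Hsromega had 0.49 (adjusted p = 0.382) and 0.05 (adjusted p = 0.944), and the mitochondrial chaperonin Hsp60A -0.04 (adjusted p = 0.909) and -0.16 (adjusted p = 0.641). The alphagamma-element, a noncoding row at 87C, had 4 to 9 counts in every library and was not tested. Hsp22 was listed at 0 in all 6 libraries, but its row lies within that of CG4456, so its reads cannot be told apart. Hsp83, Hsromega, Hsp60A, the alphagamma-element, Hsp22 and the cognate Hsc70-4 were named after their values were seen.

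The constitutive cognates did not follow Hsp70 as a group. Of 6 tested, Hsc70-3, the chaperone of the endoplasmic reticulum, fell in mutant (log2 -1.03, SE 0.26, adjusted p = 0.0387) and rose in rescue against mutant (log2 1.14, SE 0.26, adjusted p = 0.0307). The list's medians were -0.10 and -0.07. Hsc70-4, the main cytosolic cognate, had deposited FPKM values of 975 and 917 in control and 1024 and 979 in mutant, against 1158 and 1150.3 in rescue, above the summed Hsp70 in every library. The decrease of Hsc70-3 missed the threshold without control 1 (-0.99), control 2 (-1.06), mutant 1 (-0.77), rescue 1 (-1.03) or rescue 2 (-1.03). The decrease also missed it when only the control and mutant libraries were fitted (-1.04), and in 7 of 13 alternatives in all. The rise of Hsc70-3 missed it without mutant 1 (0.87), rescue 1 (1.13) or rescue 2 (1.14).

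Of 12 co-chaperones, HIP-R fell in mutant (log2 -0.91, SE 0.17, adjusted p = 0.0154). HIP-R (log2 0.93, adjusted p = 0.0147) and Hop, which hands client proteins from Hsp70 to Hsp90 (log2 0.74, adjusted p = 0.0406), rose in rescue against mutant. The list's medians were -0.37 and 0.41. The fall of HIP-R was lost without control 2 (-0.85), mutant 1 (-0.87) or mutant 2 (-0.94). The rises of HIP-R and Hop were lost without mutant 1 (0.90 and 0.76), mutant 2 (0.96 and 0.71), rescue 1 (0.97 and 0.77) or rescue 2 (0.90 and 0.71). Changes of processing included, the rise of Hop was lost in 6 of 13 alternatives. The J-domain gene DnaJ-1, named after its values were seen, had 208 and 236 CPM in control and 136 and 124 in mutant, against 494 and 183 in rescue. Its log2 values of -0.78 (adjusted p = 0.242) and 1.38 (adjusted p = 0.0692) did not pass.

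The RNA of Hsf itself did not pass the test in any comparison. It had 40.5 and 43.4 CPM in control and 31.8 and 37.4 in mutant, against 49.9 and 43.1 in rescue. Its log2 values were -0.28 (SE 0.19, adjusted p = 0.342) in mutant, 0.42 (SE 0.19, adjusted p = 0.166) in rescue against mutant and 0.15 (SE 0.19, adjusted p = 0.719) in rescue against control. Hsf activity is set largely after translation and is not measured by its RNA. Of 13 regulators of Hsp70 transcription, Hexim, an inhibitor of the pause-releasing kinase P-TEFb, fell in mutant (log2 -0.77, SE 0.21, adjusted p = 0.0432). The call on Hexim was lost when any single library was left out, at log2 values of -0.82 to -0.72. Changes of processing included, it was lost in 9 of 13 alternatives. The list's medians were -0.28 and 0.42, and Hexim was its single call in these comparisons.

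**Figure D4:**
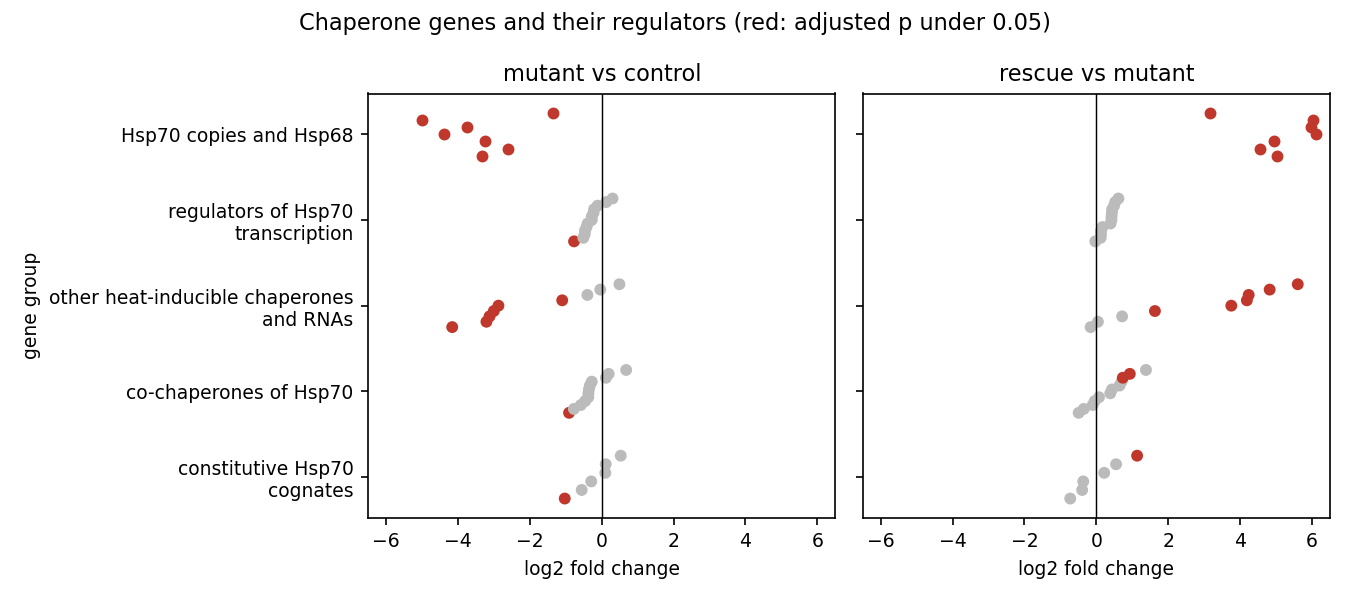
Log2 fold change of each tested gene of the 4 lists and of the 7 members, in mutant against control (left) and rescue against mutant (right), in red where the edgeR adjusted p is under 0.05. Hsp70Bb lies at -4.39 and 6.12, the heat-inducible list reaches -4.16 and 5.61, and the regulators run from -0.77 to 0.30 and from -0.03 to 0.62.

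Genes next to the heat shock loci were called in both directions in mutant, at about the shares over all tested genes. Within 50 kb of a member lay 63 other rows, of which 50 were tested. In mutant 5 of these 50 rose and 3 fell, near the 9.94 and 7.04% of all tested genes, and the median log2 change was -0.12. In rescue against mutant 3 were called, all lower, against 8.47% of all tested genes, with a median of 0.16. The nearest called rows in mutant were CG31211 (124 bp from Hsp70Aa, log2 -0.76), 4EHP, a cap-binding translational repressor (5766 bp from Hsp68, log2 -0.86), Rox8 (6814 bp from Hsp68, log2 -0.90) and CG18547 (17664 bp from Hsp70Ab, log2 2.11).

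The other neighbours called higher in mutant were CG12224 (log2 4.22, adjusted p = 0.00208), Desat2 (log2 3.50, adjusted p = 0.0324), Tk (log2 2.54, adjusted p = 0.00162) and Desat1 (log2 1.68, adjusted p = 0.00753). Without control 2 the value of CG12224 was 4.83. Desat2, named after its values were seen, had 4 and 1 counts in control and 32 and 34 in mutant. Its call was lost without control 2 (2.69), mutant 1 (3.53) or mutant 2 (3.46), and its value without control 1 was 4.92.

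Those called lower in rescue than in mutant were CG18547 (log2 -1.68), the fatty acid desaturase gene Desat1 (17836 bp from Hsp70Ba, log2 -2.19) and the tachykinin gene Tk (33265 bp from Hsp70Ab, log2 -1.81). The single call between rescue and control was CG12224 (19794 bp from Hsp70Ab, log2 2.86, adjusted p = 0.0497). CG3281, which overlaps Hsp70Ab, had 11.3 and 11.2 CPM in control and 10.2 and 6.45 in mutant, against 13.8 and 8.84 in rescue. The calls on CG31211 and Rox8 were lost when any single library was left out, at log2 values of -0.86 to -0.66 and -1.08 to -0.74. That on 4EHP was lost in each case but control 2, at -1.11 to -0.61. Changes of processing included, the calls on CG31211, Rox8 and 4EHP were lost in 7, 7 and 9 of 13 alternatives. The call on Tk was lost without mutant 1 (-1.70). That on CG12224 was lost without control 1 (2.46), mutant 1 (2.87), mutant 2 (2.86) or rescue 1 (2.49), and its value without control 2 was 3.47. Changes of processing included, the CG12224 call between rescue and control was lost in 8 of 13 alternatives.

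**Figure D5:**
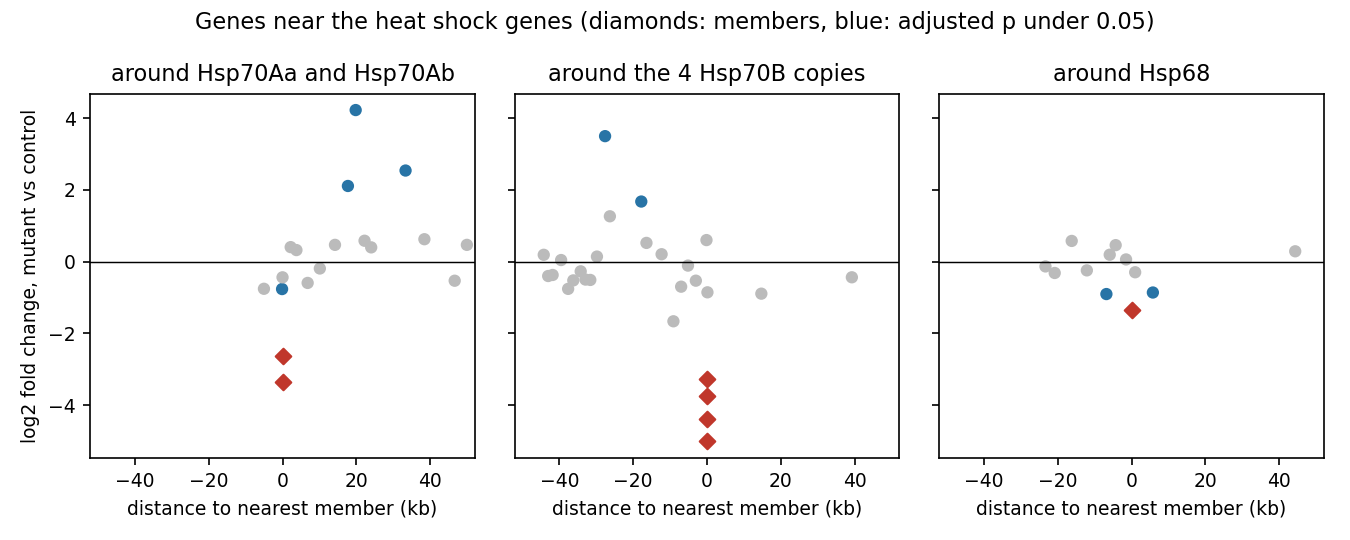
Log2 fold change in mutant against control of tested genes within 50 kb of the heat shock genes, by signed distance in kb to the nearest member, with members as red diamonds at 0 and called neighbours in blue. The 6 Hsp70 copies lie at -2.62 (Hsp70Ab) and below, under every neighbour shown, the lowest of which is at -1.66.

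The tested gene whose pattern was most like that of the summed Hsp70 counts was Hsp26, with a Pearson correlation of log2 CPM of 0.993 over the 6 libraries. It was followed by Cdk4 (0.990), a cell cycle kinase gene, CG18004 (0.990), CG30471 (0.989), EloC, which encodes Elongin C (0.988), Taf12, a TFIID subunit (0.988), CG31121 (0.988) and CG6540 (0.987). These are descriptions with 6 points that fall into 3 genotypes. The size of the change differed widely among them: Cdk4 ran only from 13.2 to 21.7 CPM over the libraries, and Hsp26 from 27.3 to 761 CPM. CG30471 lay at only 0.119 to 1.42 CPM, so its correlation rests on few counts. Among the members themselves, each Hsp70 copy correlated with the sum it is part of at 0.9735 to 0.9995, and Hsp68 at 0.9316.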

How the data were processed

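RNA-seq of 6 larval libraries was analysed. The authors deposited a gene table of raw read counts (whole numbers, per the file headers and the values). They also deposited an FPKM table, in which the same counts are divided by gene length and by a denominator for each library (13045094 to 18708073). FPKM served for levels between genes only. Which aligner, counter, strand setting, build and rule for multiply matching reads they used is not given in the sources used here. The labels do not say that libraries came from separate animals, and the p-values reflect no more than the spread among these libraries, possibly technical.

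The main test was edgeR's quasi-likelihood F test (version 4.0.16, R 4.3.3), fitted to the counts of all 6 libraries, with TMM factors, no block, and filterByExpr at a minimum count of 10 (11866 genes). P-values were adjusted by Benjamini-Hochberg over all tested genes, with calls at an adjusted p under 0.05. For the sum, the 6 Hsp70 rows were replaced by their total before the fit (11861 rows). SE is the absolute log2 fold change over the square root of F. CPM uses TMM-scaled libraries, and log2 CPM a prior count of 2. The script was tested on simulated data. DESeq2 1.42.0 was an alternative. Members, lists and the naming rule (members, up to 4 called genes a list and comparison by adjusted p, Hsf, up to 4 called neighbours by distance, and the 8 most correlated genes) were chosen with earlier results of these data known. All listed names were matched, 2 by RefSeq synonym. Promoter sequences were not analysed here.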

Additional observations from a re-analysis of the deposited data

How the results depend on the processing

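The summed Hsp70 fold changes of mutant against control and rescue against mutant kept their direction and their call in all 15 alternatives, and no member changed direction in any alternative. For rescue against control, DESeq2 called the sum (log2 1.63), and the Hsp68 call was lost when only the 2 groups were fitted (1.75) or with the replicate block (1.78). The members called higher there, 1 in the main analysis, were 4 by DESeq2, 2 without a filter on low counts, and 0 with only the 2 groups or with the block; 1 listed gene was called lower by DESeq2. Leaving out a library in turn gave 2 to 7 members and 1 to 7 listed genes called lower in mutant, 4 to 7 members and 3 to 9 listed genes called higher in rescue than in mutant, and 0 to 2 members and 0 to 3 listed genes called higher in rescue than in control. Over these the Hsp68 log2 change ran from -1.49 to -1.19 in mutant and from 1.50 to 2.04 in rescue against control. A lone library left in a group was assumed to vary like the other groups.

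Calls over all genes ran from 475 to 1486 higher and 136 to 1344 lower in mutant against control (1180 and 835 in the main analysis), from 116 to 1279 and 284 to 1455 in rescue against mutant (903 and 1005), and from 7 to 392 and 4 to 634 in rescue against control (42 and 34). The groups share replicate numbers, but the libraries with the same number did not deviate together (correlations over genes of 0.0356, 0.0554 and 0.0164), so the numbers were not taken as pairs. With the block all 7 members were called in mutant against control and in rescue against mutant, and listed genes called in mutant went from 9 to 6. The mutant values rest on few reads, down to 1 count of Hsp70Ba in mutant 2, which limits the precision of single copies.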

Other observations

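In rescue and mutant, Hsp70 differed more between the libraries of a group than most tested genes did. Summed Hsp70 in rescue 1 was 2.30 times that in rescue 2, a ratio that 3.59% of tested genes reached or exceeded. This share leaves out genes that were higher in rescue 2. In the same libraries the ratio was 2.71 for DnaJ-1, 1.87 for Hsp83, 1.51 for stv, a BAG-domain partner of Hsp70, and 1.45 for Hsp68. Among the small heat shock genes of 67B it was 1.48 for Hsp67Bc, 1.31 for Hsp67Ba, 1.20 for Hsp26, 1.10 for Hsp27 and 0.903 for Hsp23. So the ratios of Hsp70, DnaJ-1 and Hsp83 were above those of the tested small heat shock genes of 67B, and no test of that difference was made. The ratios of Hsromega (1.74), CG7130 (1.71) and stv (1.51) were too, whereas that of Hsp68 (1.45) lay below Hsp67Bc (1.48). DnaJ-1, Hsp83 and stv were not called between rescue and mutant. These genes were chosen after their values were seen. Other co-chaperones of the list did not share the high ratios of DnaJ-1, CG7130 and stv. The ratio of rescue 1 to rescue 2 was 0.967 for CG5001, 0.965 for Hop and 0.953 for HIP-R. It was 0.941 for HIP, 0.939 for STUB1 and 0.768 for jdp, so these 6 were lower in rescue 1. Droj2 (1.28) and CG2790 (1.10) were higher there, and mrj had 71.3 and 71.2 CPM.

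In mutant larvae, summed Hsp70 in mutant 1 was 3.09 times that in mutant 2. In the same direction, 1.72% of tested genes reached or exceeded this ratio. It was 1.11 for Hsp68, 1.03 for Hsp27 and 1.80 for Hsp26. The ratio was 4.11 for the 87C group and 1.38 for the 87A pair, and Hsp70Aa had 6 counts in each mutant library. Across the control libraries, Hsp23 had 209 and 877 CPM and Hsp27 163 and 511 CPM, where summed Hsp70 had 112 and 144 CPM. Glue genes stood at 2574 and 7470 CPM in those libraries. The part of developmental stage in any of these differences was not tested.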
